A study of Mus musculus with 8 samples.

Results

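The genes described here are 31 type I interferon-stimulated genes, taken by name from a table of raw read counts for 55450 genes, and all 31 passed the filter on low counts that left 16467 genes for testing. They fall into 7 roles: IFIT RNA-binding proteins (4 genes), ISG15 conjugation (2), the oligoadenylate synthetase family (5), Mx GTPases and other antiviral effectors (6), nucleic acid sensors (5), signaling and transcriptional regulators (5), and other induced proteins (4). The libraries came from tumors of GL261, a mouse glioma line, grown orthotopically in the brains of mice labelled as wild type. Cells were sorted by flow cytometry as positive for F4/80 and CD11b, negative for Ly6G, and low or negative for Ly6C. Microglia, the resident macrophages of the brain (3 libraries), had low CD45 and little or no CD49d, and bone marrow-derived macrophages (BMDM, 5 libraries), which come from blood monocytes, were CD45 positive and CD49d high. There was no group from healthy brain and no interferon treatment, so each comparison sets BMDM against microglia of the same kind of tumor. The labels give no age, sex or strain and leave unsaid whether each library had its own mouse. A p-value here thus measures only the spread between these libraries, which may be technical.

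Type I interferons (the IFN-α family and IFN-β) bind a receptor made of IFNAR1 and IFNAR2, whose kinases TYK2 and JAK1 phosphorylate transcription factors such as STAT2. STAT2 and IRF9 are subunits of the complex ISGF3, which binds the interferon-stimulated response element in promoters and switches on a program of antiviral genes. The products sense foreign nucleic acid, block viral translation and budding, and feed back on the pathway itself. Macrophages and microglia both have this program.

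Library totals ran from 5890406 to 16659154 counts, and the 31 genes took between 0.183% and 0.623% of them. Most markers of the 2 sorted groups followed the sort (edgeR adjusted p under 0.05). Of 11 microglia markers, 8 were lower in BMDM and none higher. Of 11 markers of monocyte-derived cells, 7 were higher and none lower. The latter list includes Itga4, the gene of CD49d, which the gates used. It also includes Ly6c2, a gene of Ly6C, although cells were sorted as low or negative for Ly6C. The log2 fold change of Ly6c2 ran from 5.22 to 6.81 over 20 fits, so this marker went against the gate. BMDM 4 and BMDM 5 stood apart from the other libraries. Of genes expected at 20 or more counts from the other libraries, 13.0% and 9.22% were listed at 0 there, against 0.746% to 1.97% in BMDM 1 to 3 and 1.49% to 6.09% in microglia. A single abundant noncoding gene, Gm42418, took 41.2% and 48.9% of their counts, 34.0% to 47.0% in microglia and 14.8% to 19.8% in BMDM 1 to 3. Results are therefore also given for BMDM 1 to 3 alone and for BMDM 4 and 5 alone.

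Promoter sequence is shown for 4 members that carry the response element core close upstream of the start site, 1 from each of 4 roles. RefSeq promoters on GRCm38.p6, from 250 bases before to 50 bases after a gene's start, matched 20 of the 31 members. Each line gives the 140 bases before the start, 5′ to 3′ on the gene's strand. Capitals mark the core, which was searched as GAAA, any 2 bases and GAAA again, on either strand, so that a core on the opposite strand reads as TTTC, 2 bases and TTTC.
Ifit1, chr19:34640749-34640888, plus strand: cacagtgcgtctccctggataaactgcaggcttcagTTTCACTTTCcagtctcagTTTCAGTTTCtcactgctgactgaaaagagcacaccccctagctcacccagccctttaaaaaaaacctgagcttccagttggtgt
Isg15, chr4:156200819-156200958, minus strand: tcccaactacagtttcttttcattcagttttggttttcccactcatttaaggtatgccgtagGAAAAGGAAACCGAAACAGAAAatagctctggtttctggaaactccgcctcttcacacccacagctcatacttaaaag
Oas3, chr5:120777660-120777799, minus strand: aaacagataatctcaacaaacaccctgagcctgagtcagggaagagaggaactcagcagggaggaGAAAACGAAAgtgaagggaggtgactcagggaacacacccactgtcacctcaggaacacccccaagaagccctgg
Bst2, chr8:71537473-71537612, minus strand: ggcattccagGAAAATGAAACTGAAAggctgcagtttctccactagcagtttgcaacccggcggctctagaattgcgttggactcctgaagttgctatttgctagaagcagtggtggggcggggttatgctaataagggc
Ifit1 had 2 cores on the opposite strand, starting 104 and 85 bases before the start. Isg15 had 3 overlapping cores that run into each other over 22 bases, and Bst2 had 2 that share a GAAA. The core of Oas3 starts 75 bases before its start. A core was present in 12 of the 20 members' promoters (60%), against 3.99% of 27025 genes with a RefSeq promoter. Besides the 4 shown, these were Ifit3, Ifit3b, Oas1a, Rsad2, Trim30a, Stat2, Ifih1 and Ddx58, and in Ifih1 and Ddx58 the core lies after the start. The core of the gamma-activated site, an element of many interferon-gamma targets (TTCNNNGAA, on both strands, free to overlap the other core), was in 4 of 20 members (20%) against 9.55% of all genes. These matches describe letters in a window and do not show that a factor was bound.

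No member passed the test in either direction when all 8 libraries were compared. The quasi-likelihood test of edgeR, adjusted by Benjamini-Hochberg over 16467 genes, called 0 of 31 members higher and 0 of 31 lower in BMDM at an adjusted p under 0.05, where it called 1.11% of all genes higher and 0.814% lower. The smallest adjusted p among members was 0.0829, for Mx1. On simulated counts the same fit recovered 2% of genes set at a log2 fold change of 1 in either direction, and 38% at 2. A count of 0 thus does not show equal levels. At an unadjusted p under 0.05, 9 of 31 members were higher and 0 were lower, against 6.49% and 7.27% of all genes. The fitted fold favored BMDM for 25 members and microglia for 6, so 80.6% of members had a positive log2 fold change against 53.1% of all genes, and the median was 0.78 against 0.08. DESeq2 on the same 8 libraries called 4 members higher (Isg15, Mx1, Bst2 and Zbp1) and none lower, where it called 3.74% of all genes higher. In the bulk RNA of sorted cells, fewer expressing cells and less RNA per cell cannot be told apart.

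**Figure D1:**
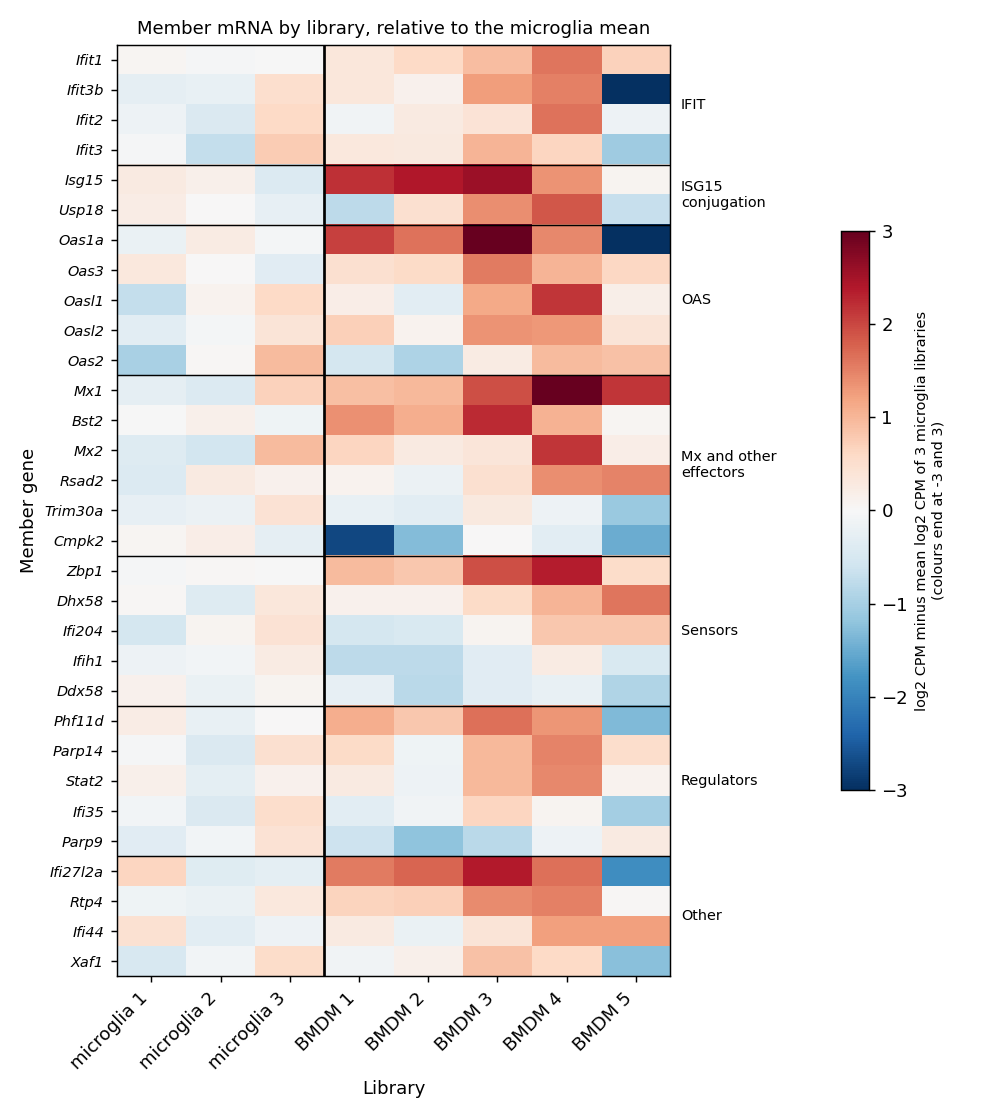
Log2 CPM of each of the 31 genes (rows, grouped by role) in each library (columns), minus the mean of the 3 microglia libraries, with colors ending at -3 and 3. BMDM 3 and BMDM 4 are red for most genes, while BMDM 5 holds the darkest blue cells, at Ifit3b and Oas1a.

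The 5 BMDM libraries differed widely from each other. The median difference of the 31 members from the microglia mean, in log2 CPM (a gene's counts relative to its library's total, scaled by TMM factors), was 0.28 in BMDM 1, 0.12 in BMDM 2, 0.97 in BMDM 3, 1.33 in BMDM 4 and 0.08 in BMDM 5. The same quantity over all genes tested was 0.08, 0.11, 0.07, -0.57 and -0.31. BMDM 4 thus had the highest median difference of the members while its typical gene lay below microglia. The members' summed CPM was highest in BMDM 3, at 5327 against 4492 in BMDM 4. All genes were not matched to the members in level. Of the 31 members, 15 had their highest BMDM value in BMDM 4 and 12 in BMDM 3, where 19.2% and 16.8% of all genes did, and BMDM 3 and 4 were the top pair among the BMDM libraries for 18 members (58.1%) against 10.1% of all genes. BMDM 3 lay above all 3 microglia libraries for 67.7% of members (34.4% of all genes) and BMDM 4 for 77.4% (27.8%). BMDM 5 lay above all microglia for 10 members (32.3%, against 29.8% of all genes) and below all for 12 (38.7%, against 39.5%), shares near those of all genes. It was the lowest BMDM library for 15 members, and for 36.4% of all genes. Microglia 3 was the high library among microglia, with a median difference of 0.33 against -0.08 in each of the other two. The mean log2 CPM of the members was 5.29, 5.25 and 5.64 in microglia 1 to 3 and 5.66, 5.60, 6.39, 6.56 and 5.19 in BMDM 1 to 5. The groups overlap on this mean, because BMDM 5 lies below every microglia library and BMDM 2 below microglia 3.

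The SD of a member's log2 CPM was larger in BMDM than in microglia for 29 of 31 members (93.5%), against 81.9% of all genes. Its median was 0.76 in BMDM and 0.36 in microglia, where all genes had 1.19 and 0.54. Across the 5 BMDM libraries, 379 of 465 pairs of members had a positive Pearson correlation, with a median of 0.535. The share among pairs of other genes was not computed, so this is not shown to be particular to the members. The correlations describe 5 libraries that differ in depth and in the share of genes at 0, and carry no test. Zbp1 followed the mean of the other members most closely (0.985), and Parp9 least (-0.218).

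**Figure D2:**
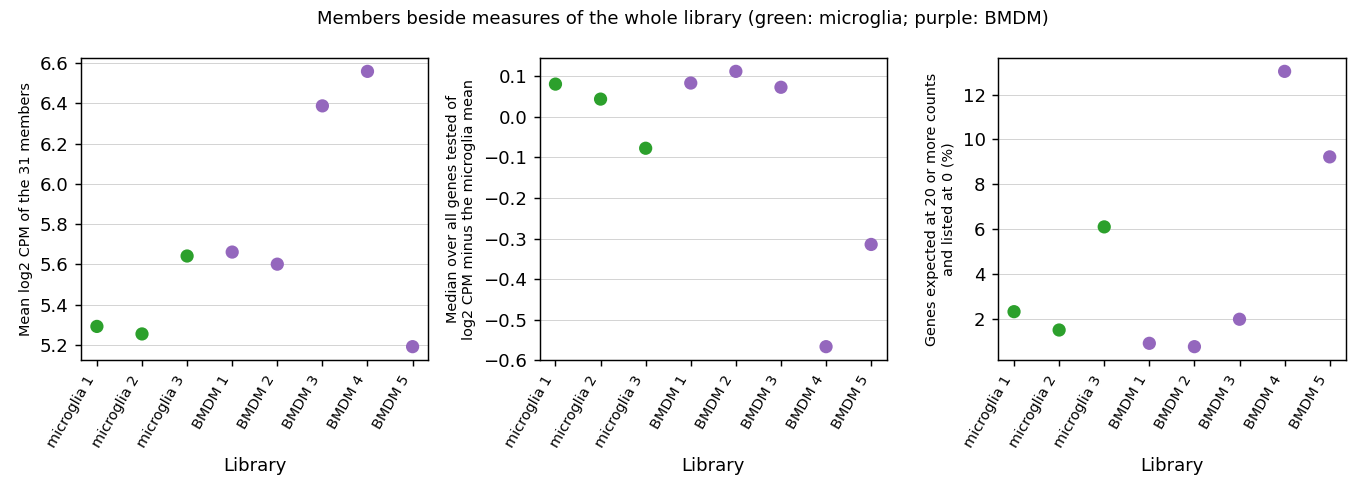
For each library, the mean log2 CPM of the 31 members (left), the median over all genes tested of log2 CPM minus the microglia mean (middle) and the percentage of genes expected at 20 or more counts but listed at 0 (right). BMDM 4, with members at 6.56, and BMDM 5, with members at 5.19, are at opposite ends on the left and are the lowest libraries in the middle panel and the highest in the right one.

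The 4 IFIT genes encode cytoplasmic proteins that bind viral RNA lacking the host's cap marks and hinder its translation. None passed the test, and their fitted log2 fold changes ran from 0.26 (Ifit3) to 0.91 (Ifit1). Ifit1 (ENSMUSG00000034459.8, GRCm38 chr19:34640871-34650009, plus strand) measured 22.2, 20.6 and 20.9 CPM in microglia 1 to 3 and 27.2, 32.0, 40.3, 65.6 and 34.7 CPM in BMDM 1 to 5. All 5 BMDM libraries lay above all microglia, and the microglia values differed little from each other. The means were 21.3 ± 0.864 CPM (SD, n = 3) and 39.9 ± 15.1 CPM (SD, n = 5), a log2 fold change of 0.91 (SE 0.38, edgeR adjusted p = 0.293). Ifit2 (ENSMUSG00000045932.12, GRCm38 chr19:34550694-34576419, plus strand) measured 35.8, 29.4 and 61.0 CPM in microglia and 37.4, 48.6, 53.7, 124 and 36.1 CPM in BMDM, so only BMDM 4 lay above microglia 3. Its log2 fold change of 0.51 (SE 0.45, edgeR adjusted p = 0.734) was 0.17 in BMDM 1 to 3 alone. Ifit3b, a near copy of Ifit3, measured 0.415 CPM in BMDM 5 and between 8.87 and 23.4 CPM in the other BMDM libraries, and its log2 fold change of 0.58 had an SE of 0.82. In the last 500 bases of Ifit3 transcripts, 9.86% of the 75-base windows also occur in another gene, so the counts of Ifit3 and Ifit3b are less certain than others.

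ISG15 is a ubiquitin-like protein that interferon both induces and makes cells attach to other proteins, and USP18 is the protease that removes it and also damps signaling at IFNAR2. Isg15 (ENSMUSG00000035692.6, GRCm38 chr4:156199424-156200818, minus strand) measured 134, 124 and 83.5 CPM in microglia and 513, 588, 657, 284 and 118 CPM in BMDM. BMDM 1 to 4 lay above all microglia, and BMDM 5 was inside the microglia range. The means were 114 ± 26.5 CPM (SD, n = 3) and 432 ± 225 CPM (SD, n = 5), a log2 fold change of 1.93 (SE 0.53, edgeR adjusted p = 0.0865). Without BMDM 5 the log2 fold change was 2.16 and passed the test (edgeR adjusted p = 0.00766), and in BMDM 1 to 3 alone it was 2.37 (SE 0.30, edgeR adjusted p = 0.00119). Usp18 (ENSMUSG00000030107.10, GRCm38 chr6:121245906-121270917, plus strand) went another way among the BMDM libraries. It measured 15.6, 13.6 and 11.2 CPM in microglia and 7.72, 18.6, 35.7, 49.0 and 8.15 CPM in BMDM, so that BMDM 1 and 5 lay below all microglia and BMDM 2 to 4 above. Its log2 fold change was 0.82 (SE 0.59, edgeR adjusted p = 0.639).

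The oligoadenylate synthetases make the short 2′-5′-linked chains of adenylate that activate RNase L when they meet double-stranded RNA, and OASL1 and OASL2 are relatives. Oas1a (ENSMUSG00000052776.10, GRCm38 chr5:120896256-120907521, minus strand) measured 5.73, 7.95 and 6.34 CPM in microglia and 28.1, 20.8, 58.1, 18.3 and 0.553 CPM in BMDM. BMDM 1 to 4 were all above microglia and BMDM 5 was below all of them. The log2 fold change of 1.92 (SE 0.86, edgeR adjusted p = 0.335) became 2.43 in BMDM 1 to 3 alone (SE 0.42, edgeR adjusted p = 0.00443) and 2.23 without BMDM 5 (edgeR adjusted p = 0.0172). Reads of Oas1a are less certain: 46% of the 75-base windows near its transcript ends also occur in a paralog. Oas3 (ENSMUSG00000032661.9, GRCm38 chr5:120753098-120777661, minus strand) measured 18.8, 15.1 and 11.8 CPM in microglia and 21.04, 22.5, 44.4, 30.4 and 23.2 CPM in BMDM. Its groups did not overlap, with means of 15.2 ± 3.52 CPM (SD, n = 3) and 28.3 ± 9.68 CPM (SD, n = 5), a log2 fold change of 0.89 (SE 0.41, edgeR adjusted p = 0.345). Oasl1 (0.87), Oasl2 (0.83) and Oas2 (0.10) did not pass either, and Oas2 was -0.49 in BMDM 1 to 3 alone.

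Of the 6 Mx GTPases and other effectors, Mx1 came closest to the threshold. Mx proteins are dynamin-like GTPases that trap viral ribonucleoproteins. RefSeq lists Mx1 and Mx2 of the reference strain as transcribed pseudogenes, so their counts are RNA and say nothing of a protein. Mx1 (ENSMUSG00000000386.15, GRCm38 chr16:97447035-97462907, minus strand) measured 11.9, 10.9 and 23.7 CPM in microglia and 27.3, 28.8, 56.1, 128 and 64.7 CPM in BMDM. All 5 BMDM libraries, BMDM 5 included, were above all microglia, with the lowest gap between microglia 3 and BMDM 1. The means were 15.5 ± 7.12 CPM (SD, n = 3) and 61.1 ± 41.1 CPM (SD, n = 5), a log2 fold change of 1.98 (SE 0.54, edgeR adjusted p = 0.0829). DESeq2 gave it an adjusted p of 0.00569. In BMDM 1 to 3 alone it was 1.30 (SE 0.40, edgeR adjusted p = 0.0507), and in BMDM 4 and 5 alone 2.63 (edgeR adjusted p = 0.0999).

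BST2, or tetherin, holds budding virus particles at the cell surface. Bst2 (ENSMUSG00000046718.8, GRCm38 chr8:71534255-71537456, minus strand) measured 326, 366 and 304 CPM in microglia and 851, 706, 1555, 685 and 347 CPM in BMDM. BMDM 1 to 4 lay above all microglia, and BMDM 5 inside their range. The means were 332 ± 31.7 CPM (SD, n = 3) and 829 ± 446 CPM (SD, n = 5), a log2 fold change of 1.32 (SE 0.48, edgeR adjusted p = 0.206). It passed in BMDM 1 to 3 alone at 1.65 (SE 0.35, edgeR adjusted p = 0.0107) and without BMDM 5 at 1.51 (edgeR adjusted p = 0.0325). Rsad2, which encodes viperin, an enzyme that makes a chain-terminating nucleotide, showed another order. It measured 118, 188 and 169 CPM in microglia and 166, 137, 218, 409 and 435 CPM in BMDM, so BMDM 4 and 5 were the high libraries and BMDM 1 and 2 lay inside the microglia range. Cmpk2, a mitochondrial nucleotide kinase encoded next to Rsad2, leaned towards microglia (log2 fold change -0.90, SE 0.55, edgeR adjusted p = 0.552). It measured 23.4, 25.9 and 18.5 CPM in microglia and 3.20, 8.99, 22.7, 18.0 and 7.88 CPM in BMDM. Mx2 (0.79) and Trim30a (-0.27), a TRIM protein that restrains NF-κB signaling, did not pass, and 18.5% of the 75-base windows near Trim30a transcript ends occur in another gene.

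Among the 5 sensors, which detect nucleic acid inside the cell, Zbp1 differed most. ZBP1 recognizes left-handed Z-form nucleic acid and can start cell death by necroptosis. Zbp1 (ENSMUSG00000027514.14, GRCm38 chr2:173206612-173218923, minus strand) measured 46.5, 48.7 and 47.3 CPM in microglia and 91.5, 83.7, 183, 242 and 70.1 CPM in BMDM. The groups did not overlap, and the microglia libraries were nearly equal. The means were 47.5 ± 1.09 CPM (SD, n = 3) and 134 ± 75.1 CPM (SD, n = 5), a log2 fold change of 1.50 (SE 0.45, edgeR adjusted p = 0.121). It was 1.34 in BMDM 1 to 3 alone (SE 0.32, edgeR adjusted p = 0.018) and 1.64 without BMDM 5 (edgeR adjusted p = 0.0257).

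Dhx58 encodes LGP2, which tunes the RIG-I-like RNA sensors. It (ENSMUSG00000017830.15, GRCm38 chr11:100694884-100704271, minus strand) measured 26.4, 19.8 and 32.9 CPM in microglia and 28.1, 28.2, 38.8, 52.2 and 79.3 CPM in BMDM, with BMDM 5 the highest and BMDM 1 and 2 inside the microglia range. Its log2 fold change was 0.78 (SE 0.42, edgeR adjusted p = 0.453). The sensors that LGP2 tunes had negative log2 fold changes, not past the threshold. Ddx58, which encodes RIG-I, measured 73.7, 58.8 and 72.1 CPM in microglia and 57.1, 38.8, 53.5, 58.4 and 35.9 CPM in BMDM. It was the only one of the 31 members with all microglia above all BMDM, by a margin smaller than the spread within either group, and its log2 fold change of -0.48 (SE 0.32, edgeR adjusted p = 0.591) did not pass. Ifih1, which encodes MDA5, had -0.38 (SE 0.34, edgeR adjusted p = 0.741). It measured 78.0, 81.9 and 102.6 CPM in microglia and 50.1, 50.6, 68.8, 103.6 and 63.6 CPM in BMDM. Its groups overlapped, with BMDM 4 above all microglia and the other BMDM libraries below all of them. Ifi204, a DNA sensor of the HIN-200 family, had 0.21 over all libraries and -0.31 in BMDM 1 to 3 alone, neither past the threshold. Over all members, 4 had all BMDM above all microglia (Ifit1, Oas3, Mx1 and Zbp1), where 4.32% of all genes did, and 1 had the reverse, where 8.66% of all genes did.

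**Figure D3:**
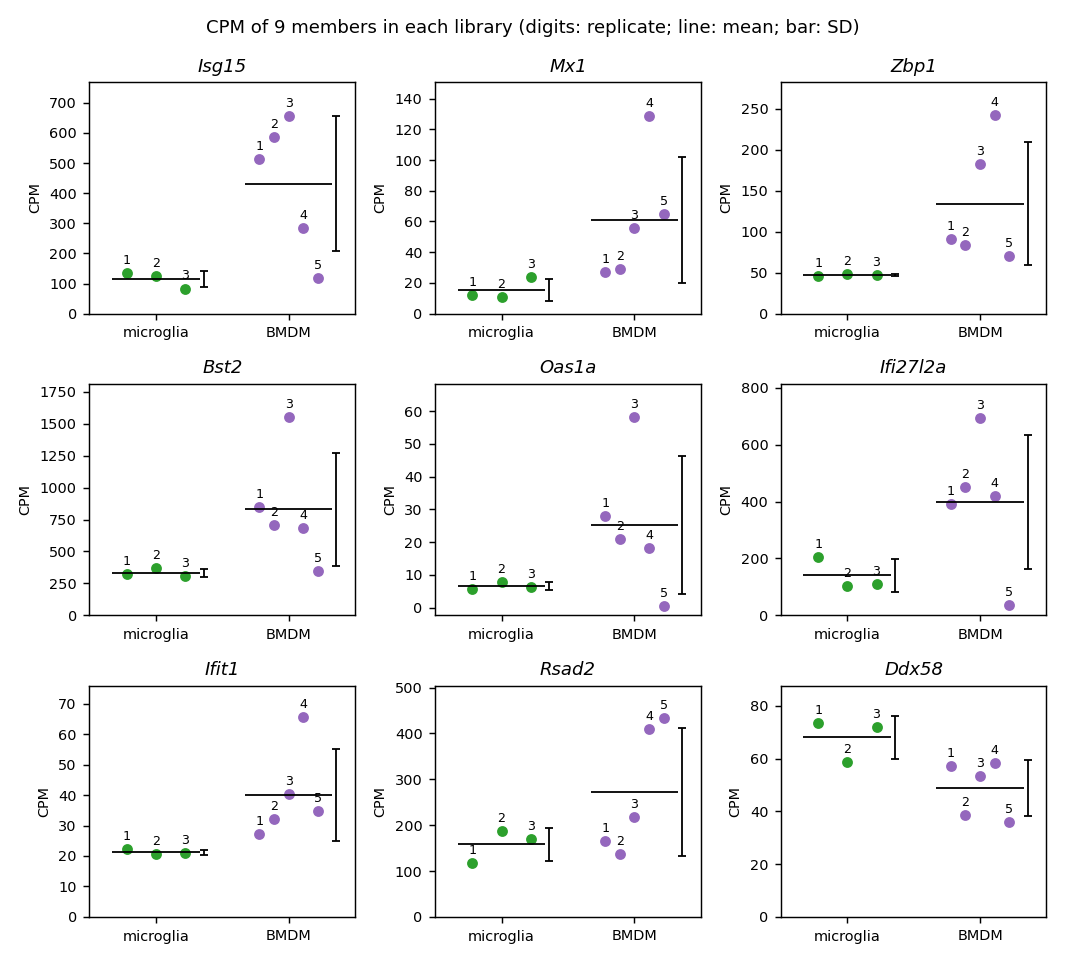
CPM of 9 members in each microglia (green) and BMDM (purple) library, labelled by replicate number, with the mean (line) and SD (bar) beside each group. BMDM 5 lies within or below the microglia points for Isg15, Bst2, Oas1a and Ifi27l2a, and above them for Mx1, Zbp1, Ifit1 and Rsad2, and for Ddx58 the microglia points lie above all BMDM points.

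The 5 regulators act on signaling or transcription: STAT2 is a subunit of ISGF3, PARP9 and PARP14 are ADP-ribosylation enzymes of interferon signaling, IFI35 is a leucine-zipper protein, and PHF11D is a PHD finger protein. Phf11d (ENSMUSG00000068245.14, GRCm38 chr14:59347407-59365470, minus strand) measured 36.1, 26.6 and 31.1 CPM in microglia and 66.6, 54.8, 97.8, 78.2 and 12.3 CPM in BMDM. BMDM 1 to 4 were above all microglia and BMDM 5 below all of them, and 19% of the 75-base windows near its transcript ends occur in other genes. Its log2 fold change was 0.99 (SE 0.50, edgeR adjusted p = 0.422), and it passed in BMDM 1 to 3 alone at 1.23 (SE 0.29, edgeR adjusted p = 0.0167) and without BMDM 5 at 1.24 (edgeR adjusted p = 0.0275). Parp14 (ENSMUSG00000034422.14, GRCm38 chr16:35832874-35871544, minus strand) measured 109, 83.5 and 156 CPM in microglia and 167, 103, 222, 316 and 161 CPM in BMDM, so that only BMDM 2 lay inside the microglia range. The log2 fold change was 0.74 (SE 0.41, edgeR adjusted p = 0.485). Stat2 had 0.64, Ifi35 -0.09 and Parp9 -0.45, none past the threshold. Exons of Parp9, Usp18, Oasl1, Dhx58 and Ifi35 overlap those of another gene on the other strand, and exons of Rtp4 and Parp14 those of an unnamed gene model on the same strand, so their counts are less certain.

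The other 4 induced proteins are RTP4, a chaperone of G protein-coupled receptors, IFI27L2A, a small hydrophobic membrane protein, IFI44, and XAF1, which binds the apoptosis inhibitor XIAP. Rtp4 (ENSMUSG00000033355.6, GRCm38 chr16:23520291-23614222, plus strand) measured 47.5, 45.5 and 65.3 CPM in microglia and 83.5, 85.9, 139, 148 and 52.9 CPM in BMDM, with only BMDM 5 inside the microglia range. Its log2 fold change was 0.95 (SE 0.39, edgeR adjusted p = 0.286), and 0.98 in BMDM 1 to 3 alone, where it passed (SE 0.28, edgeR adjusted p = 0.0407). Ifi27l2a (ENSMUSG00000079017.3, GRCm38 chr12:103442167-103443680, minus strand) measured 207, 104 and 109 CPM in microglia and 391, 450.2, 694, 420.2 and 36.3 CPM in BMDM. BMDM 1 to 4 were above all microglia and BMDM 5 was below all. Its log2 fold change of 1.51 (SE 0.66, edgeR adjusted p = 0.317) became 1.87 in BMDM 1 to 3 alone (SE 0.37, edgeR adjusted p = 0.00756) and 1.79 without BMDM 5 (edgeR adjusted p = 0.0158). Ifi44 (0.66) and Xaf1 (0.15) did not pass.

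Which members passed therefore depended on which BMDM libraries were set against microglia. BMDM 1 to 3 against microglia 1 to 3 gave 7 members higher (Isg15, Oas1a, Bst2, Ifi27l2a, Zbp1, Rtp4 and Phf11d) and 0 lower by edgeR, where 6.35% and 8.11% of all genes were called. The members' median log2 fold change there was 0.43 and that of all genes 0.09, and 24 of 31 were positive. Leaving out BMDM 5 alone gave 6 members higher (Isg15, Oas1a, Bst2, Ifi27l2a, Zbp1 and Phf11d), where 3.38% of all genes were called higher. BMDM 4 and 5 alone gave 0 members in either direction, where 0.0683% of all genes were called higher, while at an unadjusted p under 0.05 it gave 7 members higher and 0 lower, against 5.34% and 13.5% of all genes. Their median log2 fold change was 0.80 against -0.20 for all genes, with 24 of 31 positive. These comparisons use the same 3 microglia libraries, and BMDM 1 to 3 differed from microglia in the share of Gm42418 as well. The part of Gm42418 and of the missing genes in these counts was not tested, apart from leaving Gm42418 and the mitochondrial rRNA out of the library sizes, which called 0 members.

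Ligand transcripts were hardly counted in either group. Of 17 type I interferon genes, 15 had no count in any library and none passed the filter. Ifnb1 had 5, 11 and 0 counts in microglia 1 to 3 and 0 in all 5 BMDM libraries, which allows up to 0.0792 CPM over the BMDM group (3 counts, counting error only). Ifng, the gene of type II interferon, had 1, 5 and 0 counts in microglia and 42, 7, 11, 2 and 0 in BMDM.

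Receptor and signaling genes were not called with all 8 libraries. Of 13 tested, 0 were called in either direction by edgeR, with a median log2 fold change of 0.12. At an unadjusted edgeR p under 0.05, 1 was higher, against 6.49% of all genes. DESeq2 called 1 higher, where it called 3.74% of all genes higher. The receptor chains Ifnar1 (0.57) and Ifnar2 (-0.03), the kinases Jak1 (-0.31) and Tyk2 (0.73), and the ISGF3 subunit Irf9 (-0.07) were all short of the threshold. Socs1, the feedback inhibitor of JAK kinases, measured 11.5, 14.0 and 17.9 CPM in microglia and 41.0, 20.3, 52.7, 196 and 21.3 CPM in BMDM. Its groups did not overlap and BMDM 4 was far above the rest, with a log2 fold change of 2.20 (SE 0.69, edgeR adjusted p = 0.144).

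Genes that sense nucleic acid and induce interferon were likewise not called, 0 of 23 tested, with a median log2 fold change of -0.20. DESeq2 called 2 of them higher, where it called 3.74% of all genes higher. At an unadjusted edgeR p under 0.05, 5 were higher and 2 lower, against 6.49% and 7.27% of all genes. Irf7, the factor that amplifies interferon production, shared a pattern with the members Oas1a, Ifi27l2a and Phf11d. It measured 46.9, 27.1 and 43.8 CPM in microglia and 144, 95.2, 351, 352 and 22.3 CPM in BMDM, with BMDM 1 to 4 above and BMDM 5 below all microglia. The log2 fold change was 2.30 (SE 0.71, edgeR adjusted p = 0.135), and in BMDM 1 to 3 alone 2.34 (edgeR adjusted p = 0.00732). Tlr7, an endosomal receptor for single-stranded RNA, measured 44.6, 54.8 and 108 CPM in microglia and 31.02, 33.4, 38.1, 19.3 and 28.5 CPM in BMDM. All microglia lay above all BMDM, with a log2 fold change of -1.20 (SE 0.37, edgeR adjusted p = 0.127). Irf3 (0.38), Irf1 (1.03), Cgas (-0.63), Tmem173, the STING gene (0.22), Mavs (-0.20), Tlr3 (-1.49) and Tlr9 (-1.72) did not pass.

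Other interferon-stimulated genes outside the 31, 62 of them tested, held 5 that were higher in BMDM and 0 lower. Of all genes, 1.11% were called higher and 0.814% lower. In the list 47 were positive, with a median log2 fold change of 0.51. DESeq2 called 11 of these 62 higher, where it called 3.74% of all genes higher. The list was written with earlier results of these data known. The 5 were Ifi203, Mndal, Slfn1, Slfn4 and Ms4a4c. Ifi203 and Mndal belong to the HIN-200 family that Ifi204 is from, Slfn1 and Slfn4 are Schlafen genes, which act on growth of T cells and myeloid cells, and Ms4a4c encodes a tetraspan membrane protein. Ifi203 measured 23.0, 19.5 and 14.0 CPM in microglia and 131, 149, 141, 124 and 79.2 CPM in BMDM, a log2 fold change of 2.72 (SE 0.38, edgeR adjusted p = 0.00189). Its groups were far apart, with the lowest BMDM library, BMDM 5, well above the highest microglia library.

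Slfn1 measured 3.52, 5.73 and 2.34 CPM in microglia and 46.2, 52.7, 98.2, 129 and 20.9 CPM in BMDM, a log2 fold change of 4.16 (SE 0.62, edgeR adjusted p = 0.00292). Slfn4 had 4.13 (SE 0.78, edgeR adjusted p = 0.0144), Ms4a4c 3.28 (SE 0.51, edgeR adjusted p = 0.00356) and Mndal 1.63 (SE 0.34, edgeR adjusted p = 0.0218). All 5 had every BMDM library above every microglia library. Ifi203, Slfn1 and Ms4a4c kept their call without any 1 library, while leaving out any 1 of the microglia libraries left 3 of the 5, without Slfn4 and Mndal.

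Genes better known as targets of interferon-gamma held 3 of 21 tested that were higher and 0 lower, against 1.11% and 0.814% of all genes. Their median log2 fold change was 0.17. The 3 were Ciita, the master regulator of class II histocompatibility genes (2.68, SE 0.59, edgeR adjusted p = 0.0275), Ifi47, a GTPase (2.16, SE 0.44, edgeR adjusted p = 0.0192), and Serpina3g, a protease inhibitor (2.85, SE 0.55, edgeR adjusted p = 0.0148). None of the 3 passed when any 1 microglia library was left out. Ciita overlapped because BMDM 5 had 11.6 CPM beside 12.7 CPM in microglia 1. Cxcl9, a chemokine that draws T cells, measured 141, 110 and 185 CPM in microglia and 357, 255, 614, 838 and 169 CPM in BMDM, and did not pass (1.62, SE 0.52, edgeR adjusted p = 0.151). Cxcl10, a chemokine for the same receptor, was -0.07.

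Some markers of other cell types were higher in BMDM, although the gates for F4/80, CD11b and Ly6G select against lymphocytes and neutrophils. The summed CPM of 10 T cell markers was 5.56 to 24.4 in microglia and 35.1 to 135 in BMDM. Of 8 tested, edgeR called 1 higher (Trbc2) and 0 lower. Trbc2, a T cell receptor constant gene, measured 32.2, 7.02, 24.7, 33.4 and 1.80 CPM in BMDM 1 to 5. Summed neutrophil markers were 4.34 to 13.3 CPM in microglia and 52.5 to 113 CPM in BMDM, with 1 of 6 tested higher (S100a8), and Ly6g, the marker of the gate, had no count in microglia. The 7 NK cell markers summed to 0.667 to 9.55 CPM in microglia and 4.98 to 152 CPM in BMDM, with 0 of 4 tested called. Of 8 tested markers of conventional dendritic cells 1 was higher (Ccr7) and 1 lower (Fscn1). They summed to 151 to 330 CPM in microglia and 77.7 to 182 CPM in BMDM, although 7 of the 8 had a positive log2 fold change. Ccr7 measured 40.1, 5.54, 25.3, 29.0 and 0.276 CPM in BMDM 1 to 5. Markers of plasmacytoid dendritic cells, strong makers of type I interferon, include the member Bst2 and the microglia gene Siglech and summed to 1168 to 1672 CPM and 1104 to 2358 CPM. Of 8 tested, 0 were higher and 1 (Siglech) was lower, and Klk1 had no count in microglia. Of the markers of B cells, endothelial cells, astrocytes, oligodendrocytes, neurons and erythroid cells, none was higher in BMDM, and 1 astrocyte marker was lower. All 8 tested T cell markers and all 6 tested neutrophil markers had a positive log2 fold change, with medians of 3.66 and 2.84. DESeq2 called 5 T cell, 4 neutrophil and 1 NK cell marker higher and 0 lower. In each of the 2 dendritic cell lists it called 2 markers higher and 1 lower. The part of other cell types in the members' values was not tested.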

How the data were processed

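Counts are raw read counts per gene that the authors deposited as whole numbers in 1 table, from QuantSeq 3′ FWD libraries per the labels' protocols. FastQC, cutadapt, STAR, featureCounts and DESeq2 with the mm10 build appear, without versions, in the submitters' processing notes. Strand use and the treatment of reads matching several places were not given in the sources used here. All 55450 identifiers matched GENCODE M21. Low counts were removed by filterByExpr (min.count 10, min.total.count 15), and the rest were scaled with TMM and tested as BMDM minus microglia with edgeR 4.0.16's quasi-likelihood test in R 4.3.3 (robust, Benjamini-Hochberg adjustment over 16467 genes, threshold 0.05). SEs come from the F statistic, and log2 CPM used a prior count of 2. Alternatives used DESeq2 1.42.0, limma 3.58.1 voom, other scalings and filters, and subsets of libraries. The scripts were tested on simulated data before use. There edgeR recovered 2%, 38%, 78% and 88% of genes set at log2 fold changes of 1, 2, 3 and 4 in either direction. No pair of libraries in a group was alike within sampling noise (lowest chi-square per degree of freedom 21.1). Full values are given for the 2 members with the smallest p in each of 7 roles, and for a fixed set of pathway genes and any called gene. A gene of that set is not reported here. Rsad2, Cmpk2, Ddx58 and Ifih1 were added after their values were seen. Members and lists were chosen with earlier results of these data known.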

Additional observations from a re-analysis of the deposited data

Results flagged for a closer look

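In 5 of the 31 members, 1 BMDM library stood far from the other 4, by a gap over range above Dixon's critical value for 5 samples. Ifit3b measured 0.415 CPM in BMDM 5 against 8.87 to 23.4 CPM in the other BMDM libraries. Oas1a measured 0.553 CPM in BMDM 5 against 18.3 to 58.1 CPM. Ifi27l2a measured 36.3 CPM in BMDM 5 against 391 to 694 CPM, and Phf11d measured 12.3 CPM there against 54.8 to 97.8 CPM. Mx2 measured 42.2 CPM in BMDM 4 against 10.8 to 14.9 CPM. Chance alone would mark about 5% of genes. These members are 16.1% of the 31, near the 12.7% of all genes tested that the same rule marked. Over all genes it marked 898 genes in BMDM 4 and 936 in BMDM 5, against 76 to 103 in each of BMDM 1 to 3.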

How the results depend on the processing

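With all 8 libraries edgeR called 183 genes higher and 134 lower. The counts were 601 and 313 with DESeq2, 403 and 318 with no filter, 1063 and 1668 with limma-voom quality weights, 1028 and 1312 in BMDM 1 to 3 only, and 11 and 6 in BMDM 4 and 5 only, and limma-voom called 250 lower. Genes tested numbered 16077 with DESeq2, 31187 with no filter and 16467 with quality weights. They numbered 16182 in BMDM 1 to 3 only and 16114 in BMDM 4 and 5 only. Leaving out 1 library in turn gave 58 (without microglia 3) to 536 (without BMDM 5) higher and 46 to 602 lower for the same libraries. Members called higher, 0 at first, were 4 with DESeq2, 1 with library totals alone (Mx1), 4 with no filter (Isg15, Mx1, Ifi27l2a and Zbp1), 8 with quality weights and 7 in BMDM 1 to 3 only, and 0 to 6 on leaving out 1 library, with 6 without BMDM 5. For library totals alone, no count over all genes is given to set beside the members. Quality weights called 1 member lower (Cmpk2), and no member was lower on leaving out any 1 library. The cause was not tested. Scaling by library totals moved the median of all genes by 0.13. The members' median ran from 0.37 (without BMDM 4) to 0.91 (without BMDM 2) and stayed positive in all 19 alternatives. Of the other interferon-stimulated genes, 5 were higher at first, 11 with DESeq2, 8 with no filter, 14 with quality weights, 14 in BMDM 1 to 3 only, 0 in BMDM 4 and 5 only, and 3 to 8 on leaving out 1 library. Of the interferon-gamma targets, 3 were higher at first, 1 with limma-voom, 6 with quality weights, 0 in BMDM 4 and 5 only and 0 to 4 on leaving out 1. In BMDM 1 to 3 only, receptor and signaling genes gave 1 higher and 1 lower, and sensing genes 3 higher and 4 lower.

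Replicate numbers 1 to 3 occur in both groups, but no label ties them to a shared mouse. Correlations of same-numbered libraries' deviations were 0.137, 0.0903 and 0.238, and each of these 6 libraries correlated best with its own number. Whether the numbers pair the samples is not settled by this, and the main fit did not pair them. With the replicate block over these 6 libraries, 1477 of 16182 genes tested were higher and 1767 lower. That fit called 8 members higher (those of BMDM 1 to 3 only, and Mx1) and 1 lower (Parp9). It also called 17 other interferon-stimulated genes and 5 interferon-gamma targets higher, and 7 sensing genes lower.

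The sign held in every alternative for 24 of 31 members, and the other 7 were within 0.58 of 0. Ifit3 was -0.11 in BMDM 4 and 5 only, and -0.046 to 0.66 on leaving out 1 library. Ifit3b was -0.048 with limma-voom. Oas2 was -0.078 with quality weights, -0.40 with the block and -0.49 in BMDM 1 to 3 only, and -0.27 to 0.61 on leaving out 1. Ifi204 was -0.16, -0.29 and -0.31 in those settings, and -0.020 to 0.36 on leaving out 1. Xaf1 was -0.12 and Parp9 0.028 in BMDM 4 and 5 only, and Xaf1 ran from -0.076 to 0.42 on leaving out 1. Ifi35 was 0.0033 with DESeq2, 0.0031 with RLE factors, 0.11 with library totals, 0.022 with a 10 CPM filter, 0.15 with quality weights, 0.095 with the block and 0.11 in BMDM 1 to 3 only, and -0.33 to 0.15 on leaving out 1.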

Other observations

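Longer members tended to be relatively higher in BMDM 5. Across the 31 members, the difference in log2 CPM of BMDM 5 from the mean of BMDM 1 to 3 had a Pearson correlation of 0.58 and a Spearman correlation of 0.50 with exon length, against 0.21 for both over all genes tested. The members share libraries and are not independent, and the value is a description with no test. For BMDM 4 the correlations were 0.49 and 0.27 among members, and 0.16 for both over all genes. In BMDM 5, 7 members had a higher value than in each of BMDM 1 to 3 (22.6%), against 31.4% of all genes.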
